A study of Mus musculus with 6 samples.

Results

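The epithelial sodium channel and the mineralocorticoid pathway that controls it were examined in the colon of mice lacking HDAC1 and HDAC2 in intestinal epithelial cells. Every probe set annotated with Scnn1a, Scnn1b, Scnn1g, Sgk1, Nr3c2, Hsd11b2, Nedd4l, Prss8 or Atp1b1 as its only gene symbol was kept. This gave 18 probe sets for 9 genes, of 45037 probe sets and 18193 genes with a probe set of 1 symbol in all. Of these genes, 7 had 1 probe set each, whereas Nedd4l had 6 and Atp1b1 had 5.

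According to the methods, RNA came from 3 HDAC1/2 deficient and 3 control mice. The deficient mice, labelled HDAC1/2 KO, had floxed Hdac1 and Hdac2 alleles and a villin-Cre transgene, and the controls were labelled wild type. The villin promoter drives Cre in epithelial cells of the intestine, so that lymphocytes, muscle and stroma keep both genes. All mice were untreated, ate a normal diet and were 4 months old. Whether the controls carried floxed alleles or Cre is not stated in the sources used here. The sample labels speak of epithelium, but the methods describe RNA of whole colon, and each RNA was hybridized to an Affymetrix GeneChip Mouse Genome 430 2.0 array.

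In the distal colon, aldosterone enters surface colonocytes and binds the mineralocorticoid receptor, a nuclear receptor encoded by Nr3c2. The receptor also binds glucocorticoids, which the dehydrogenase encoded by Hsd11b2 inactivates in the same cells. The activated receptor induces the kinase gene Sgk1, whose product phosphorylates the ubiquitin ligase Nedd4l and so keeps it from removing the sodium channel from the apical membrane. The channel is built from alpha, beta and gamma subunits, encoded by Scnn1a, Scnn1b and Scnn1g, and is opened further when proteases such as prostasin, encoded by Prss8, cut its extracellular loops. Sodium that enters through the channel is pumped out across the basolateral membrane by the sodium pump, of which Atp1b1 encodes a beta subunit.

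The arrays fell into their labelled groups. Hdac1 was 1.30 lower on the log2 scale in deficient colon, and none of the 3 Hdac2 probe sets passed the test, but whether these probe sets lie within the deleted part of the gene was not determined. The paper reports loss of both proteins by Western blot of enriched epithelial cells. By immunofluorescence it found no HDAC1 in the mutant epithelium, whereas HDAC2 remained in some crypts and villi. Arrays of 1 group correlated at 0.9984 to 0.9988 across probe sets and arrays of different groups at 0.9824 to 0.9828. Both Xist, made from the inactive X chromosome of females, and the Y-linked Eif2s3y were measured on each of the 3 deficient arrays, at 11.99 to 12.06 and 8.22 to 8.49 log2 units, against 12.81 to 12.88 and 3.84 to 4.31 on the control arrays, in their brightest probe sets. The groups therefore differ in RNA that depends on sex, and effects of sex and of the deletion cannot be told apart. RNA of a single male or a single female mouse would not normally hold both at such levels. Whether each deficient array stands for 1 mouse is therefore not known, and no source used here states whether RNA of several mice was pooled. The p-values measure only the spread between these arrays, which cannot be taken as the spread between mice.

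Most of the pathway was lower in HDAC1/2 deficient colon. Of the 18 probe sets, 10 fell, 1 rose and 7 did not pass limma at an adjusted p under 0.05. Of all probe sets, 39.8% passed, 21.0% falling and 18.8% rising. The 2 groups did not overlap in 14 of the 18, against 50.0% of all probe sets. The 7 genes with a single probe set all fell, and each kept its direction and its call under all 17 alternatives run. With limma's treat, which asks whether a change exceeds a fold of 1.2, 7 member probe sets were lower, those of the same 7 genes, against 7.85% of all probe sets. The median log2 fold change of the 18 was -0.23, against -0.0068 over all probe sets. Fold changes are deficient over control, and all signals are log2 values that RMA compresses for dim probe sets. In RNA of whole colon, fewer cells of a type and less RNA per cell cannot be told apart.

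**Figure D1:**
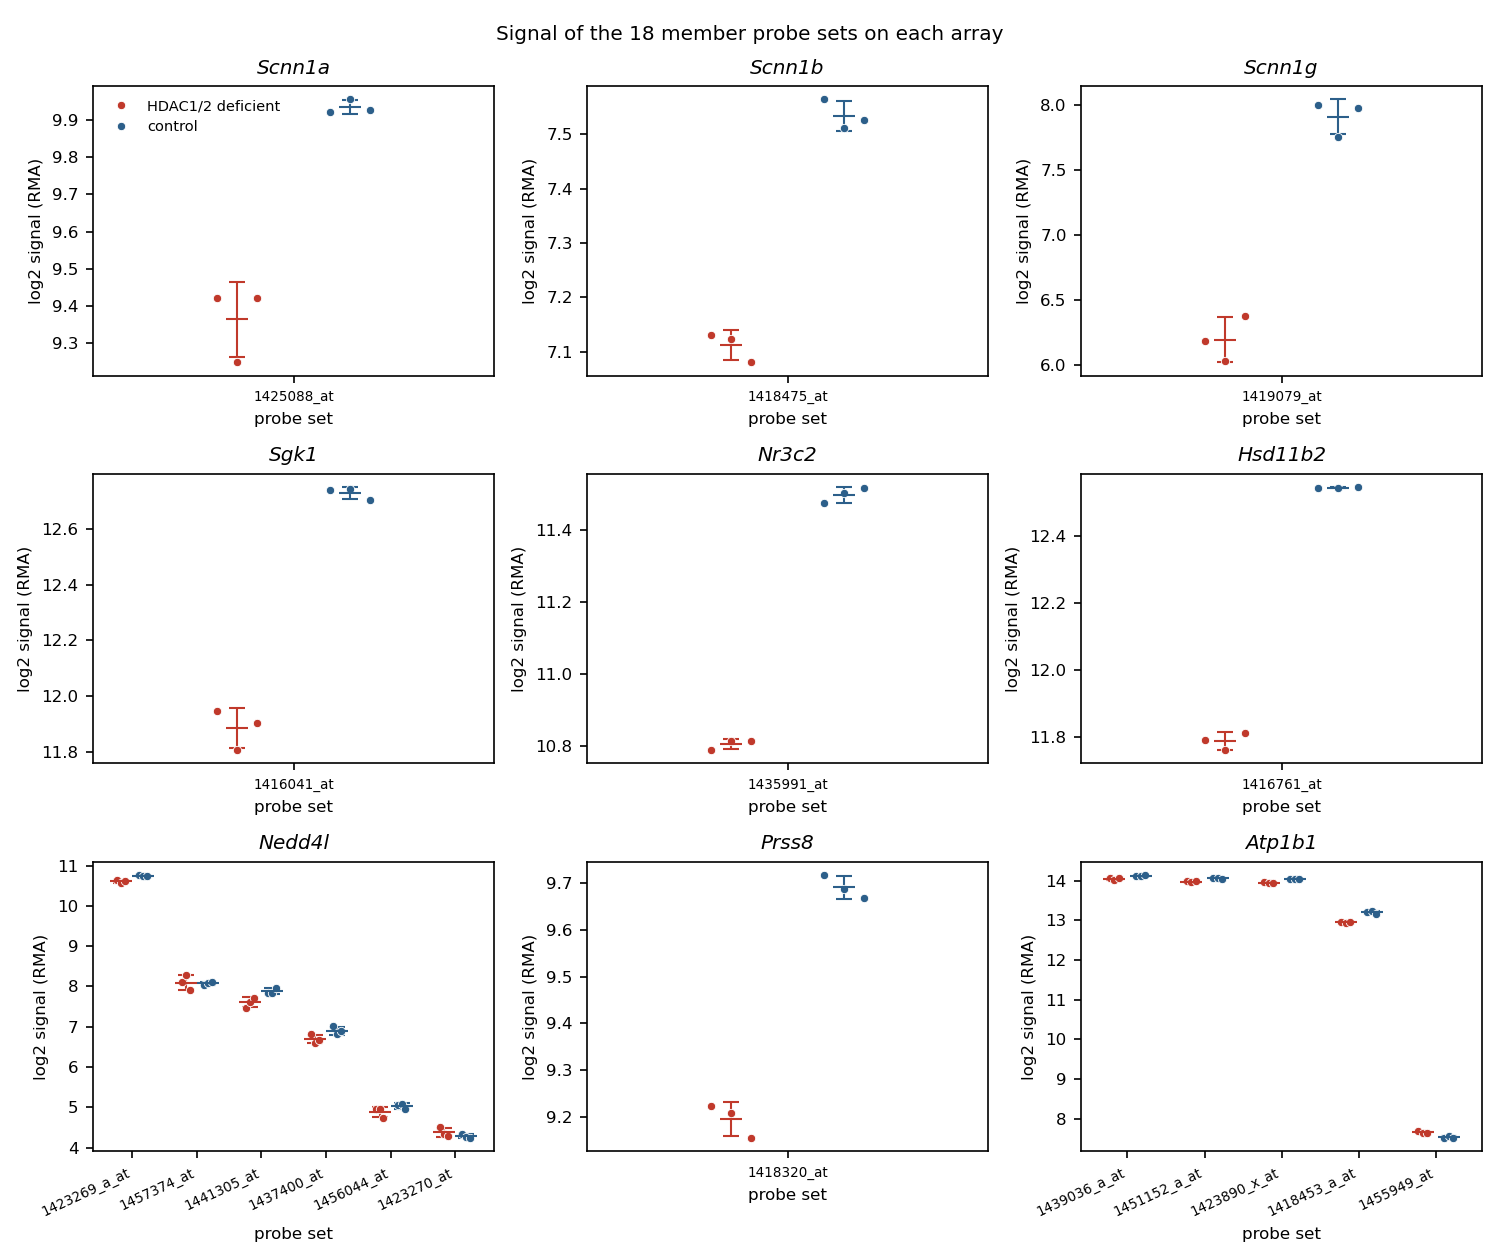
Log2 signal (vertical axis, RMA, separate scale in each panel, not starting at 0) of each probe set of the 9 genes (horizontal axis) on 3 HDAC1/2 deficient (red) and 3 control (blue) arrays. Points are arrays and bars are the mean with the SD, and the groups are apart in the 7 genes with 1 probe set and close together in Nedd4l and Atp1b1.

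The gamma subunit of the channel had the largest change of the 9 genes. Scnn1g was at 6.18, 6.03 and 6.38 log2 units in deficient colon and at 8.0, 7.75 and 7.98 in control colon. Every deficient array lay more than a log2 unit below every control array. The fall was 3.28-fold (limma log2 fold change -1.71, SE 0.10, adjusted p = 1.03e-05), and 1.23% of all probe sets fell by more than 2-fold at this threshold. The deficient values lie in the lower part of the scale, whose array medians were 6.78 to 6.81.

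The alpha and beta subunits fell by less. Scnn1a, which encodes the subunit the channel needs to form a conducting pore, was at 9.42, 9.25 and 9.42 in deficient colon and at 9.92, 9.96 and 9.93 in control colon (limma log2 fold change -0.57, SE 0.057, adjusted p = 0.000139). Scnn1b was at 7.13, 7.12 and 7.08 in deficient colon and at 7.56, 7.51 and 7.53 in control colon (limma log2 fold change -0.42, SE 0.041, adjusted p = 0.000118). In both genes all deficient arrays were below all control arrays. The 95% interval of the change ran from -1.95 to -1.48 for Scnn1g, from -0.71 to -0.44 for Scnn1a and from -0.52 to -0.33 for Scnn1b, so that the interval of the gamma subunit lay apart from those of the other subunits. The difference between the subunits was not itself tested, and each rests on 1 probe set.

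Scnn1g and Scnn1b lie next to each other on chromosome 7, with no other protein-coding gene between them in RefSeq. The 250 bases before their start sites are shown because the estimated falls of these neighbours differed, a difference that was not tested. Whether promoter sequence bears on these falls was not tested either. The sequences are from RefSeq (GRCm38.p6, plus strand), and capitals mark the GC box GGGCGG on either strand.
Scnn1g, chr7:121734229-121734478: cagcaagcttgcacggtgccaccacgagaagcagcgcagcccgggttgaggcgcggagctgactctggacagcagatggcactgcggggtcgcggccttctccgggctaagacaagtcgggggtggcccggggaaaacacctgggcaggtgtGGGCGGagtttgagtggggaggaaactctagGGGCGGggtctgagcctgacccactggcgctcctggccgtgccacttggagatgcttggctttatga
Scnn1b, chr7:121864788-121865037: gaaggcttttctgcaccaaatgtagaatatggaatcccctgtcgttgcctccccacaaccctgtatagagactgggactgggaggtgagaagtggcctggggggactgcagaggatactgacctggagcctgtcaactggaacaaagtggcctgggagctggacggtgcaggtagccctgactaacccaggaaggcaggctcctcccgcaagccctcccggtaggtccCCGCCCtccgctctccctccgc
The Scnn1g window held 2 GC boxes, 98 and 67 bases before the start site, and the Scnn1b window held 1, which began 22 bases before it. Of all 32851 such windows, 32.7% held a GC box. The Scnn1g window had 16 CpG dinucleotides and the Scnn1b window 7, against a median of 6 over all windows. Neither held the steroid half-site AGAACA, on either strand, or the TATA motif TATAAA, which 16.1% and 12.4% of all windows held.

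The receptor and the enzyme that guards it fell together. Nr3c2, the mineralocorticoid receptor gene, was at 10.79, 10.82 and 10.81 in deficient colon and at 11.47, 11.50 and 11.52 in control colon. This was 62.0% of the control level (limma log2 fold change -0.69, SE 0.039, adjusted p = 8.31e-06). Hsd11b2 was at 11.79, 11.76 and 11.81 in deficient colon and at 12.54 on all 3 control arrays. It reached 59.3% of the control level (limma log2 fold change -0.75, SE 0.039, adjusted p = 5.49e-06). In both genes the gap between the groups was many times the spread within them, the SDs being 0.015 and 0.022 for Nr3c2 and 0.026 and 0.0020 for Hsd11b2 in deficient and control colon.

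Sgk1, the kinase gene that the receptor induces, fell as well. It was at 11.95, 11.81 and 11.91 in deficient colon and at 12.74, 12.74 and 12.70 in control colon, with no overlap. The level was 55.8% of control (limma log2 fold change -0.84, SE 0.049, adjusted p = 9.75e-06). RefSeq gives Sgk1 6 start sites, and the array's single probe set for the gene cannot be assigned to any of them here. The window before 1 of them is shown because it holds the full palindromic steroid response element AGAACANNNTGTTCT, the DNA motif that the mineralocorticoid and glucocorticoid receptors share. Capitals mark that element, further copies of its half-site AGAACA and a GC box, all on either strand, and the half-sites at each end of the element overlap it.
Sgk1, GRCm38.p6 plus strand, chr10:21993640-21993889: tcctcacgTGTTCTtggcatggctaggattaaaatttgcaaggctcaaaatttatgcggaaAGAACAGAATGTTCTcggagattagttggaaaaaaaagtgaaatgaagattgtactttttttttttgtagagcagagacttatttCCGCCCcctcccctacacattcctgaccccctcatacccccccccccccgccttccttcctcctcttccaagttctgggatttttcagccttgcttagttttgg
The element began 189 bases before the start site, and a further half-site began 242 bases before it. An exact match was present in 3 of 32851 windows, or 0.00913%. Half-sites alone were less rare, at 16.1% of windows, and 3 of the 6 Sgk1 windows held one. The Nr3c2 window held 3 GC boxes and no half-site. Promoter sequence was matched for 5 of the 9 genes. A match describes the letters of the window and says nothing on binding.

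Prss8, which encodes the membrane-anchored protease prostasin, fell as well. It was at 9.22, 9.21 and 9.16 in deficient colon and at 9.72, 9.69 and 9.67 in control colon. The deficient level was 71.0% of control (limma log2 fold change -0.49, SE 0.042, adjusted p = 5.81e-05).

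Nedd4l, the ligase that Sgk1 restrains, moved little. Its brightest probe set, 1423269_a_at, was at 10.64, 10.57 and 10.61 in deficient colon and at 10.77, 10.73 and 10.74 in control colon (limma log2 fold change -0.14, SE 0.041, adjusted p = 0.0276). The groups did not overlap, but the adjusted p was 0.0538 to 0.0814 without any 1 array other than deficient replicate 1, and 0.0498 without that one. A second, 1441305_at, was at 7.48, 7.61 and 7.72 in deficient colon and at 7.84, 7.83 and 7.97 in control colon (limma log2 fold change -0.28, SE 0.072, adjusted p = 0.0179), and lost its call without control replicate 3 (limma adjusted p = 0.0601) or deficient replicate 1 (limma adjusted p = 0.0506). The other 4 probe sets overlapped between the groups and did not pass, with log2 fold changes from -0.20 to 0.099 and adjusted p from 0.0611 to 0.877. In 2 of them, 1456044_at and 1423270_at, the signal was dim, with means over all arrays of 4.96 and 4.33. Nedd4l was therefore lower in 2 of its 6 probe sets, and higher in none.

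Atp1b1, the sodium pump subunit gene, had probe sets that went both ways. Probe set 1418453_a_at was at 12.95, 12.94 and 12.95 in deficient colon and at 13.22, 13.22 and 13.16 in control colon (limma log2 fold change -0.26, SE 0.040, adjusted p = 0.00145). The dimmest, 1455949_at, was at 7.68, 7.65 and 7.64 in deficient colon and at 7.52, 7.57 and 7.52 in control colon, and rose by 0.12 (limma, SE 0.040, adjusted p = 0.0486). This probe set did not pass when any single array was left out (limma adjusted p from 0.0567 to 0.150). In the other 3, the log2 fold changes were -0.082, -0.079 and -0.10 (limma adjusted p = 0.150, 0.152 and 0.0730) although the groups did not overlap. With trend and robust eBayes settings all 3 were lower (limma adjusted p = 0.00147, 0.00105 and 7.17e-05) and 1455949_at did not pass (limma adjusted p = 0.105). Those 3 had mean signals of 14.00 to 14.09, close to the highest value on any array, 14.85. All 5 probe sets were thus within 0.26 log2 units of control.

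**Figure D2:**
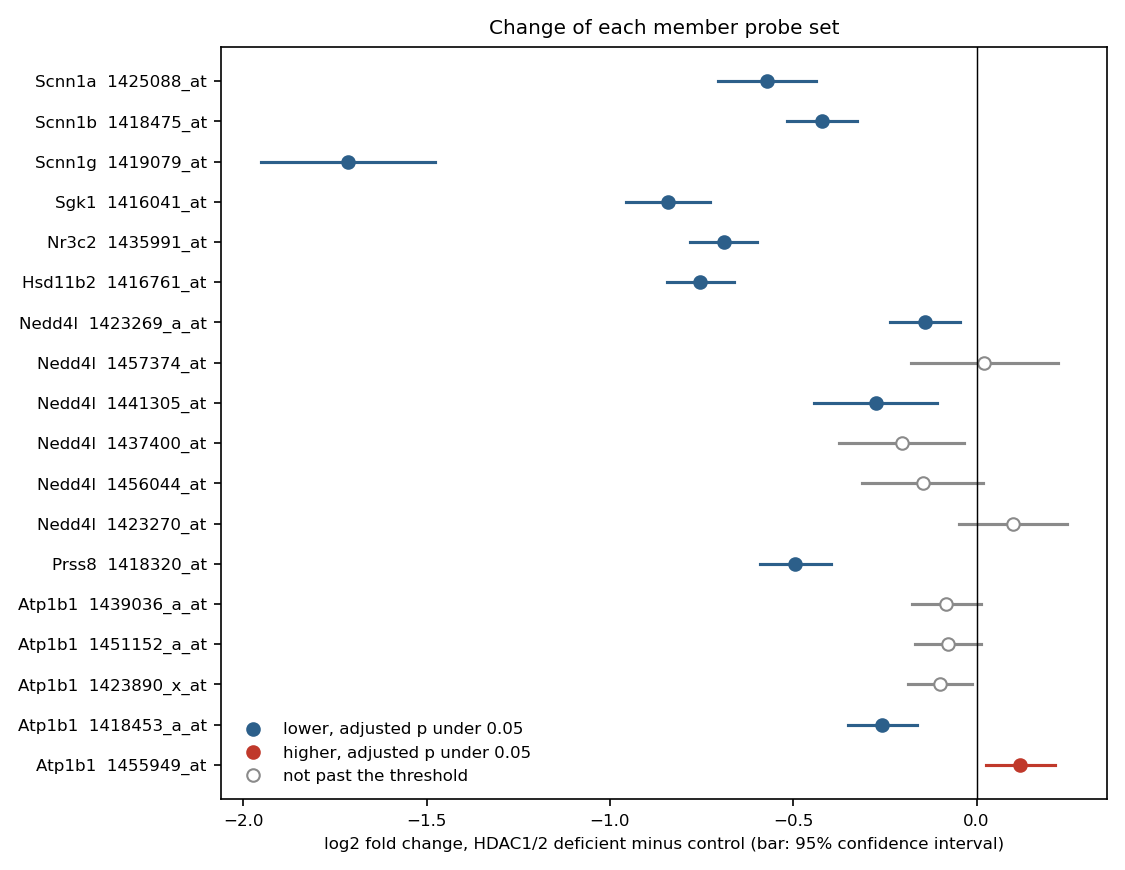
Log2 fold change (horizontal axis, HDAC1/2 deficient minus control, 3 arrays each) of the 18 probe sets (vertical axis), with 95% confidence intervals from limma. The 7 genes with 1 probe set lie at -0.42 or lower and Scnn1g at -1.71, whereas the probe sets of Nedd4l and Atp1b1 lie between -0.28 and 0.12.

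Other genes of channel control and of corticosteroid signaling went both ways. In all, 7 lists of 84 genes were drawn up from general knowledge, but with earlier results of these data known. Their shares beside those of all genes are therefore a description and not an independent test. A probe set with their symbol alone was present for 74 of the genes. Of these, 17 were higher (23.0%), 31 lower (41.9%) and 26 not past the test, where 50.4% of all genes passed by their brightest probe sets, 21.9% higher and 28.4% lower. The groups did not overlap in 55 of the 74, against 60.9% of all genes. The median log2 fold change was -0.054 over the 74 genes and -0.022 over all genes. In each list, the 3 genes with the largest changes past the test are named.

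Among kinases and ubiquitin enzymes that act on the channel, 5 of 18 rose, 8 fell and 5 did not pass (list median -0.048). Sgk2, a kinase gene related to Sgk1, was at 11.50, 11.59 and 11.49 in deficient colon and at 9.85, 9.90 and 9.87 in control colon (log2 fold change 1.65, limma adjusted p = 2.71e-07). Every deficient array was thus below every control array in Sgk1 and above every control array in Sgk2. Wwp2, a ubiquitin ligase gene of the Nedd4 family, fell by 0.81 on the log2 scale and Stk39, a kinase gene of the Wnk cascade, by 0.66, although 3 of the 6 probe sets of Wwp2 and 1 of the 3 of Stk39 did not pass. Nedd4 itself, the closest relative of Nedd4l, was at 11.75 ± 0.035 in deficient colon and 11.81 ± 0.018 in control colon (SD, n = 3 each) in its brightest probe set, which did not pass, and 1 of its 3 probe sets was higher.

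Of 9 corticosteroid-induced genes, 1 rose, 4 fell and 4 did not pass (list median -0.034). Edn1, the endothelin gene that aldosterone induces in kidney, was at 7.77, 7.78 and 7.82 in deficient colon and at 10.16, 9.97 and 10.10 in control colon, a fall to 20.5% of control (limma log2 fold change -2.29, SE 0.056, adjusted p = 1.66e-07). Tsc22d3, which encodes the glucocorticoid-induced leucine zipper protein, fell by 1.11, with 3 of its 4 probe sets lower and 1 not past the test. Fkbp5, which encodes a chaperone that lowers receptor affinity, rose by 0.73 instead, with 2 of its 3 probe sets higher. The list therefore did not move one way.

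Of 15 genes of corticosteroid receptors, their chaperones and the supply of steroid and angiotensin, 4 rose, 7 fell and 4 did not pass (list median -0.20). The chaperone genes Fkbp4 and Hsp90aa1, whose products hold steroid receptors ready for ligand, rose by 0.81 and 0.63 on the log2 scale, and Agt, the angiotensinogen gene, fell by 0.46. Nr3c1, the glucocorticoid receptor gene, was at 10.10 ± 0.043 in deficient colon and 10.33 ± 0.061 in control colon (SD, n = 3 each), a fall of 0.23, and 2 of its 6 probe sets passed, both lower. Hsd11b1, which regenerates active glucocorticoid, rose by 0.36 where Hsd11b2 fell. Nr3c1 and Hsd11b1 were chosen after their values were seen, as was Nedd4 above.

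Of 8 genes of channel-cleaving proteases and their inhibitors, 2 rose, 3 fell and 3 did not pass (list median -0.061). Plau, the urokinase gene, rose by 0.69 and St14, which encodes the protease matriptase that acts with prostasin, by 0.29. Tmprss2, a membrane serine protease gene, fell by 0.27, with 2 of its 4 probe sets lower and 2 not past the test. Of 10 sodium pump subunit and FXYD genes, 3 rose, 4 fell and 3 did not pass (list median -0.034). The FXYD proteins tune the pump, and Fxyd5 rose by 0.58 while Fxyd6 and Fxyd1 fell by 0.50 and 0.35. None of the 5 genes of acid-sensing ion channels, which belong to the same protein family as the sodium channel, passed limma, with log2 fold changes from -0.13 to 0.13 (list median 0.059). At an unadjusted p under 0.05, 2 of the 5 passed limma and 0 the unequal-variance test that the methods name.

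**Figure D3:**
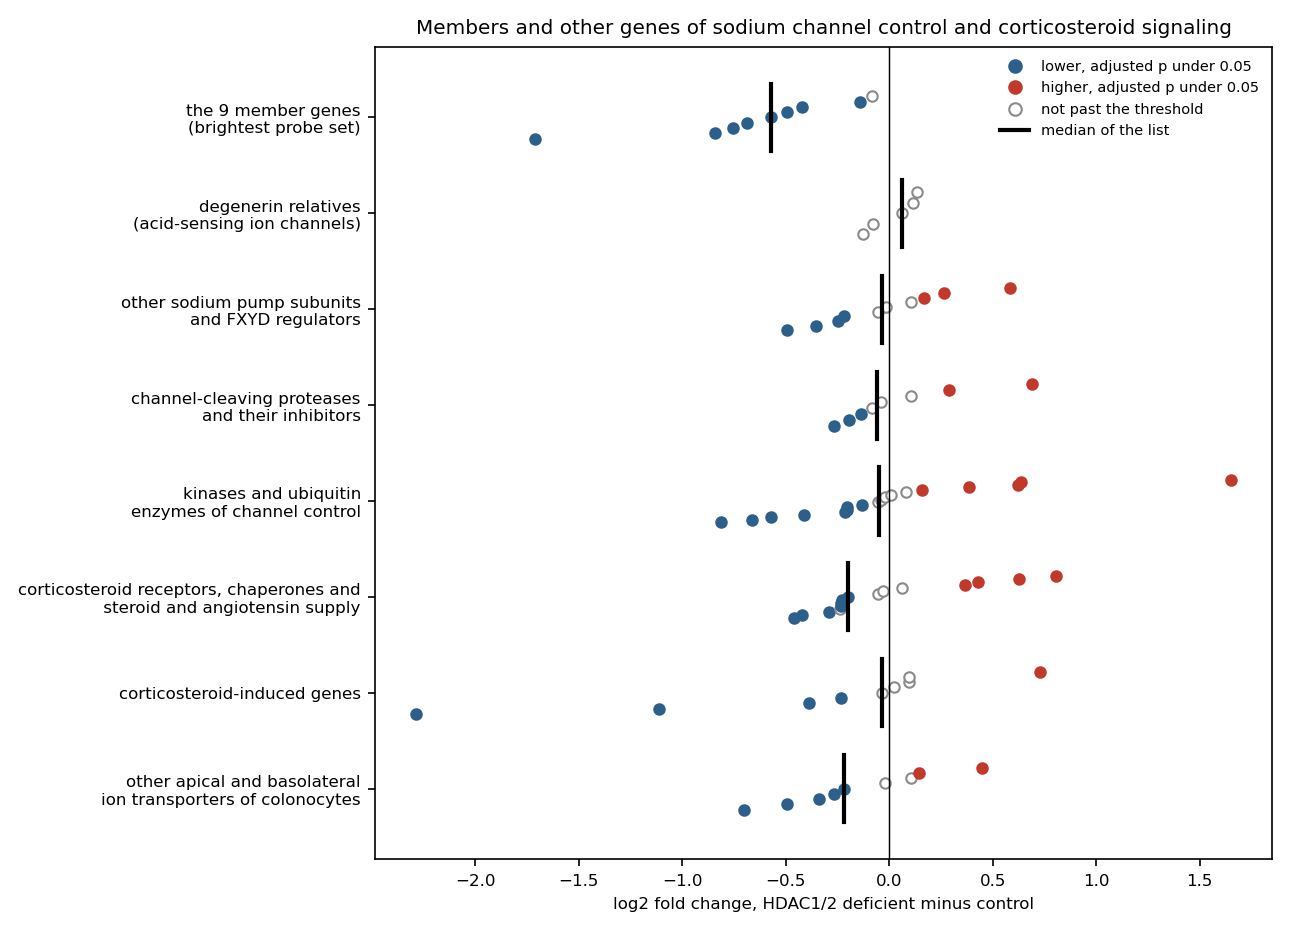
Log2 fold change (horizontal axis, HDAC1/2 deficient minus control, 3 arrays each) of the 9 genes of the pathway and of 74 further genes in 7 lists (vertical axis), each by its brightest probe set. Filled points are genes with a limma adjusted p under 0.05, open points the others, and bars list medians, which lie between -0.22 and 0.059 for the 7 lists and at -0.57 for the 9 genes.

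Markers of other cell types and of gut region also changed, some lists rising and others falling. Summed signals below are over the genes of a list on the linear scale of RMA, given as the range over 3 arrays. Of 8 general epithelial markers, 4 rose, 1 fell and 3 did not pass, with a summed signal of 118048 to 119693 in deficient colon and 110559 to 111923 in control colon. Of 7 surface colonocyte markers, 2 rose, 2 fell and 3 did not pass (list median -0.045), with a summed signal of 91030 to 91697 in deficient colon and 82446 to 83375 in control colon. Krt20 and Car1 rose by 0.67 and 0.57, and Ceacam20 and Slc26a3 fell by 0.44 and 0.34. The sum gives most weight to the brightest genes, such as Car1, and the median does not. With each array set relative to its mean over the 8 epithelial markers, a scaling chosen after seeing the data that moved the median of all probe sets to -0.19, 15 of the 18 member probe sets were lower and none higher, where 55.5% of all probe sets were lower, and Scnn1g was at -1.90. Among the 8 markers, Krt20, Cdx2 and Vil1 rose most, by 0.67, 0.56 and 0.35, and Epcam fell by 0.16. The paper also reports raised Cdx2 in mutant colon by qPCR. This scaling therefore cannot show whether the share of epithelial cells differed.

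The posterior Hox genes that mark the distal colon, where the channel is normally most active, were lower in deficient colon in 4 of 5 cases, by 0.34 to 0.90, the largest fall being that of Hoxb13. The fifth, Hoxa13, was at -0.11 and did not pass, and the summed signal was 6240 to 6577 in deficient colon and 10779 to 10988 in control colon. Markers of stratified squamous epithelium, which lines the anal canal and in skin also makes sodium channel subunits and prostasin, fell in 5 of 7 cases, led by Krt10 (-3.15) and Krtdap (-2.90). Their summed signal was 601 to 606 in deficient colon and 1908 to 1981 in control colon. Among the defining markers of basal squamous cells, Krt14 fell by 1.40 and Krt5 by 0.17, and Trp63 was at 5.42 in both groups, below the array medians. Neither list's part in the falls of the pathway was tested.

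Leukocyte markers rose in 6 of 7 cases, with a summed signal of 8366 to 8548 in deficient colon and 4873 to 5082 in control colon. Smooth muscle markers fell in 5 of 5 cases (38092 to 39734 in deficient colon, 48646 to 49207 in control colon), and of 5 markers of stroma and vessels 1 rose, 3 fell and 1 did not pass (14726 to 15188 in deficient colon, 16380 to 16480 in control colon). Goblet cell markers fell in 4 of 7 cases (131022 to 132178 in deficient colon, 154011 to 154345 in control colon). Of 6 small intestinal enterocyte markers 3 rose, 1 fell and 2 did not pass (18251 to 18812 in deficient colon, 4166 to 4278 in control colon). Exocrine pancreas markers rose in 5 of 5 cases (21764 to 22574 in deficient colon, 391.8 to 426.2 in control colon). The part of these cell types in the changes of the pathway was not tested.

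**Figure D4:**
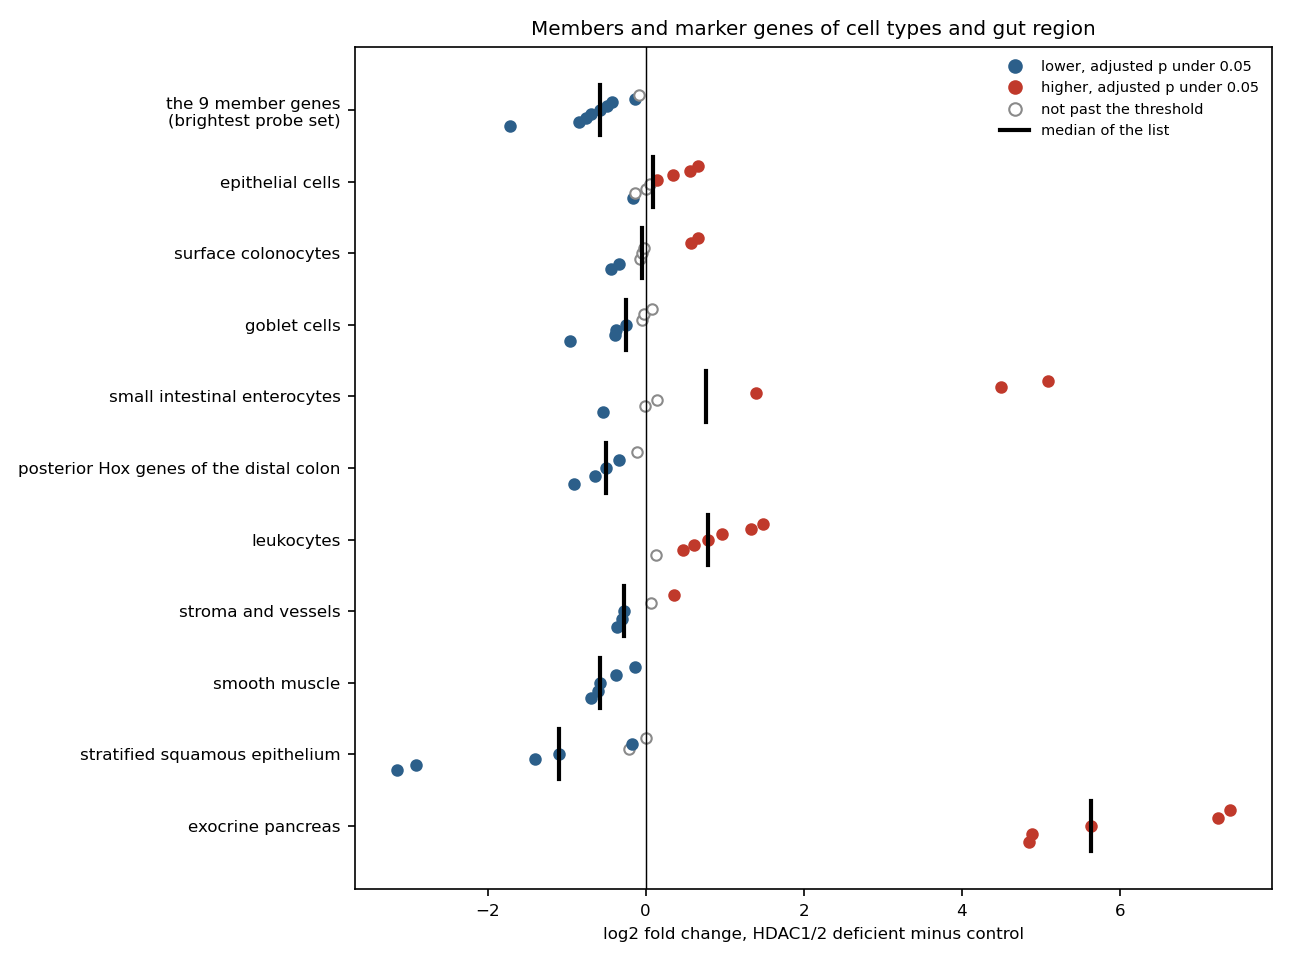
Log2 fold change (horizontal axis, HDAC1/2 deficient minus control, 3 arrays each) of the 9 genes of the pathway and of marker genes of 10 cell types or regions (vertical axis), each by its brightest probe set. Filled points are genes with a limma adjusted p under 0.05, open points the others, and bars list medians, which are 0.097 for epithelial cells, -0.51 for posterior Hox genes and -1.10 for squamous epithelium.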

How the data were processed

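According to the methods, RNA came from the colon of 3 HDAC1/2 deficient and 3 control mice. It was measured on 1 array per sample. The authors deposited 1 log2 signal for each probe set and array, made with RMA (background correction, normalization across arrays and summary of probes) in Flexarray 1.6.1 according to the study's methods. RMA compresses differences of dim probe sets. From the table of 45101 probe sets, 64 control probe sets were left out, and 45037 were tested, deficient against control with no covariate, by lmFit and eBayes of limma 3.58.1 (R 4.3.3), with Benjamini-Hochberg adjustment over all of them and a threshold of 0.05. Arrays have no read depth, and 3 per group limit the precision. Tests on simulated data of 45037 probe sets with 3 arrays per group recovered 34 of 50 changes of 0.5 and 39 of 50 of -0.5 on the log2 scale, all 50 of 1.5 and all 50 of -1.5, and called 5 of 44837 unchanged probe sets. The simulation changed a far smaller share of probe sets than the 39.8% called in the real data. Its noise was drawn independently for each array. These figures therefore check the code and do not measure performance in the real data.

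Gene names came from the array's platform annotation, in which 34945 probe sets have 1 symbol, 932 several and 9160 none. Every member probe set was kept. Other genes were read from the probe set with the highest mean signal. In each pathway list the 3 genes with the largest absolute changes past the threshold were named, and the 2 largest changes of a marker list could be named. Nedd4, Nr3c1, Hsd11b1, Hoxa13, Trp63, Krt5 and Krt14 fall outside this rule and were chosen after their values were seen. The markers Ceacam20, Slc26a3, Vil1 and Epcam fall outside it as well. The members and lists were chosen with earlier results of these data known. Promoter windows were RefSeq sequence of GRCm38.p6, searched for motifs on both strands. Alternatives were the Welch test that the methods name, other normalizations, a filter on dim probe sets (under the 40th percentile), other eBayes settings, array weights, a replicate block, leaving out each array, leaving out probe sets of shared sequence, treat, averaging a gene's probe sets and, added after seeing the data, scaling to epithelial markers. No source used here gives a scan date or batch.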

Additional observations from a re-analysis of the deposited data

How the results depend on the processing

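The alternatives were run on the 18 member probe sets, on Nedd4l and Atp1b1 as genes and on the counts, not on each other gene named. Counting each probe set or gene once per alternative, direction and side of the threshold were kept in 258 cases, a call was gained in 19 and lost in 23, and the sign changed in 5. The probe sets of the 7 genes with 1 probe set each kept both throughout. The count of member probe sets that rose, 1 in the results above (Atp1b1 1455949_at), was 0 with each array centred on its median, with trend and robust eBayes settings, without probe sets of shared sequence, with treat, relative to epithelial markers and without any 1 array (0 to 0). The count of those that fell was 8 to 10 without 1 array, 7 with treat, 11 with the methods' test after Benjamini-Hochberg adjustment and 13 without it, 12 with the filter on dim probe sets and 14 with trend and robust eBayes settings. The methods' test after adjustment called Atp1b1 1451152_a_at and 1423890_x_at lower as well. Probe sets called over the whole array numbered 17933, against 6560 with treat and 29431 relative to epithelial markers, and 15582 to 16913 without 1 array. With treat, 9 of the 74 other pathway genes were higher and 10 lower, against 17 and 31, and without 1 array 16 to 18 were higher and 26 to 30 lower. The sign changed in 2 Nedd4l probe sets that did not pass and in the Atp1b1 probe set that was called higher: Nedd4l 1457374_at was at -0.0025 with array weights, at -0.068 to 0.11 without 1 array (below 0 without deficient replicate 2) and at -0.16 relative to epithelial markers, which also put Nedd4l 1423270_at at -0.086 and Atp1b1 1455949_at at -0.065, where it did not pass. Epithelial scaling lowers every log2 fold change by 0.19 by its own construction, and the causes of the other shifts were not tested. Deviations of same-numbered arrays correlated at 0.096, 0.064 and -0.026, and those of differently numbered arrays at -0.10 to 0.030. With 3 arrays per group, these values cannot settle whether the replicate numbers pair the arrays. With a replicate block, 10 member probe sets were lower and 0 higher, 17283 probe sets were called, Nedd4l 1423269_a_at (limma adjusted p = 0.0541) and Atp1b1 1455949_at (limma adjusted p = 0.0937) lost their calls and Nedd4l 1437400_at gained one (limma adjusted p = 0.0150). The filter on dim probe sets left out 2 Nedd4l probe sets, and the filter on shared sequence 1 of Atp1b1.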

Other observations

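Other ion transporters of colonocytes also changed. Of 9 measured genes, 2 rose, 5 fell and 2 did not pass limma (list median -0.22). The potassium channel genes Kcnq1, which encodes a basolateral channel, and Kcnma1, which encodes the apical channel of potassium secretion, fell by 0.70 and 0.49 on the log2 scale, although 3 of the 5 probe sets of Kcnma1 did not pass. Slc9a3, which encodes the sodium-proton exchanger for electroneutral sodium uptake, was at 11.90 ± 0.033 in deficient colon and 11.45 ± 0.018 in control colon (SD, n = 3 each) and rose by 0.45 in the brighter of its 2 probe sets, the other not passing. The exchanger thus rose where the 3 sodium channel subunits fell, and what links these changes was not tested.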
